A study of Mus musculus with 6 samples.

Results

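The Rab small GTPases are the largest branch of the Ras superfamily of GTP-binding proteins. The members were chosen by name, as the genes called Rab followed by a number and, for some, a letter or a further digit. Of the 23698 genes in each count table, 58 carried such a name, and no member shared its row with another gene. Rab1 and Rab7l1 are older symbols of Rab1a and Rab29, and the names of the count tables are kept. The series examines mRNA isoforms and translation in mouse skin, in 6 samples of epidermal stem cells, keratinocytes of the wild type and cells of squamous cell carcinoma (SCC). The 3 long-read samples were not analysed here, and the 3 others, all of SCC cells, are 1 sample of ribosome profiling and a pair of RNA-seq replicates. These 3 libraries form a single group with the genotype HrasG12V; Tgfbr2 fl/fl KO. The cells were keratinocytes taken from P0 back skin and kept in culture to passages 10 to 15. The activated Hras allele (G12V) and the loss of Tgfbr2 are thus shared by every library, no strain is given, and the study describes the line as made earlier without saying whether it is 1 clone. No control condition is present, so each value compares genes within the same cells.

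Rab proteins act as switches that recruit effectors to membranes when bound to GTP, and each member marks particular compartments of the secretory or endocytic routes. Exchange factors (GEFs) load them with GTP, GTPase-activating proteins (GAPs) switch them off, and lipid groups on cysteines at the carboxyl end anchor them in membranes, from which GDP dissociation inhibitors extract them. In keratinocytes, Rab-dependent transport carries integrins, cadherins and growth factor receptors to and from the cell surface, and several members take part in the uptake and positioning of melanosomes.

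Ribosome profiling sequences the mRNA fragments protected by ribosomes, called footprints, and RNA-seq measures mRNA abundance. Exons held 3549555 counts in ribosome profiling, of which 3198469 lay on coding sequences (CDS), against 10707930 counts in the first RNA-seq replicate and 14003713 in the second. Levels are given as RPKM, counts divided by the counted length in kilobases and by these exon totals, recomputed from the deposited counts. At these depths a transcript of 1 kilobase with 3 counts, the smallest number taken as detected, would have 0.845 RPKM of footprints, and 0.280 or 0.214 RPKM in the RNA-seq replicates. All intervals and counting errors cover counting error only, since copies of a read made by PCR are not separate molecules. The RNA-seq replicates differed beyond sampling noise, with a chi-square of 7.52 per degree of freedom over 9862 genes. These are the genes that passed the filters, with an RNA-seq level above 1 RPKM in both replicates, a mean count scaled for depth (base mean) above 25, and footprints on a counted CDS.

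Tgfbr2 and Hras, the modified genes, were examined first. Tgfbr2, a receptor of TGF-beta, had 61.4 and 59.0 RPKM in the RNA-seq replicates and 193 footprints on its CDS. Hras had 1179 and 1619 RNA-seq counts and 128 footprints. Sums over all exons cannot show the loss of a floxed part of a gene or a change of 1 base, so these counts do not bear on the genotype. All 8 keratinocyte markers passed the filters, with summed RNA-seq levels of 14622 and 16722 RPKM, and the keratin gene Krt5 was the most abundant at 8724 RPKM. Of the 4 markers of differentiated keratinocytes 3 passed, with Ivl the most abundant at 104 RPKM and Lor at 2 counts in each replicate. None of the 5 fibroblast markers passed (0 of 5), and their summed levels were 9.70 and 15.1 RPKM with Col3a1 the most abundant. Col1a1, Col1a2, Col3a1 and Dcn were above 1 RPKM in both RNA-seq replicates but had 0 footprints on the CDS, and Col1a1 went from 2.02 to 4.19 RPKM between the replicates. Of the 4 leukocyte markers only Cd68 passed, at 36.2 RPKM, and Cd207 and Cd3e were at 0 in all 3 libraries. The cells therefore carried the markers of their label, and the part of other cells in the Rab values was not tested.

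The 5 codons that encode the carboxyl end show the shared anchor of the family and how its spacing differs between members. The sequences below are the last 15 nucleotides before the stop codon of 1 GENCODE M21 transcript (GRCm38) for each gene, 5′ to 3′, with cysteine codons in capitals. They were picked to show each spacing for genes described in the results, with closely related genes next to each other.
Rab1: ggtggaggcTGCTGC
Rab1b: agcggtggcTGCTGC
Rab2a: gggggaggcTGCTGT
Rab2b: gactctggcTGCTGC
Rab10: aagagcaagTGCTGC
Rab5a: cagTGTTGTagtaac
Rab5b: cagTGTTGTagcaac
Rab5c: cagTGCTGCagcaac
Rab11a: TGCTGTcagaacatc
Rab11b: TGCTGCcagagcctg
Rab25: TGTTGCatcagcctc
Rab4a: caggagTGTggcTGC
Rab4b: cagcccTGTggcTGC
Rab7: gaaagcTGCagtTGT
Rab15: aagaccTGCtggTGC
Rab20: tccgggTGTTGTgcc
Rab8a: cggTGCagtctcctg
Rab8b: cgcTGTtctctgctt
Rab23: agcTGTagtgtaccc
Rab28: atgTGTgcagtgcag

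All 58 members had a cysteine codon among these 5, which the naming rule did not use. A pair of cysteine codons was found in 49 members, and 34 of these ended on cysteine, while 9 members had 1 cysteine codon. The most frequent layout was a pair separated by 1 codon at the very end, as in Rab4a and Rab7, with 20 members. A further 14 members ended on adjacent cysteines, as in Rab1 and Rab10. The genes that share a number shared the layout in each of the groups printed. Among members that passed the filters, the 8 with 1 cysteine codon had a median log2 translational efficiency of 0.83 and the 32 with a pair had 0.42, both well inside the range of the family given further on.

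Of the 58 Rab genes 40 passed, against 41.6% of all genes in the tables. Rab genes took 0.315% of the footprints on CDS (95% Wilson interval 0.309% to 0.321%). Their share of the RNA-seq counts on CDS was 0.261% in replicate 1 (0.258% to 0.265%) and 0.254% in replicate 2 (0.251% to 0.257%). On whole exons the order was the opposite, with 0.322% of the footprints (0.316% to 0.328%) and 0.408% (0.404% to 0.412%) and 0.395% (0.392% to 0.398%) of the RNA-seq counts. The family was thus a larger share of the footprints than of the RNA-seq counts on the CDS, and a smaller one on exons. In bulk cells, less RNA per cell and fewer cells with that RNA cannot be told apart. The median level of the 40 genes was 31.2 RPKM in RNA-seq and 55.5 RPKM in footprints, against 15.3 and 19.1 RPKM over all 9862 genes that passed.

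Rab7, Rab1, Rab10, Rab14 and Rab25 were the most abundant members in RNA-seq on exons. Rab7, which directs late endosomes and their fusion with lysosomes, had 204 and 224 RPKM in the RNA-seq replicates and 431 RPKM of footprints. Rab1, which acts in transport from the endoplasmic reticulum (ER) to the Golgi, had 169 and 155 RPKM in RNA-seq and 644 RPKM of footprints. Rab10, which delivers vesicles to the plasma membrane, had 137 and 131 RPKM and 352 RPKM of footprints. The level plot by role shows Rab7, Rab1 and Rab10 leading their groups in RNA-seq and Rab14 and Rab25 at the top of the recycling group, with the replicates close together next to the spread between genes. The 5 members with most footprints (Rab1, Rab7, Rab11a, Rab10 and Rab14) held 46.5% of the footprints of the family on CDS (45.5% to 47.5%). In the RNA-seq replicates the leading 5 members, with Rab18 in place of Rab14, held 39.8% (39.1% to 40.5%) and 38.3% (37.7% to 39.0%). A handful of general transport regulators thus made up a large share of the family's counts. Rab7 has only 3 nt of counted 3′ untranslated region (UTR), so its exon level is in effect a CDS level. On the CDS its RNA-seq counts were 1351 and 1943 on 621 nt. Rab1 had 2008 and 2426 on 605 nt, and Rab10 had 1586 and 2040 on 600 nt. Rab7 thus led on exons but lay below Rab1 and Rab10 on the CDS in both replicates.

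**Figure D1:**
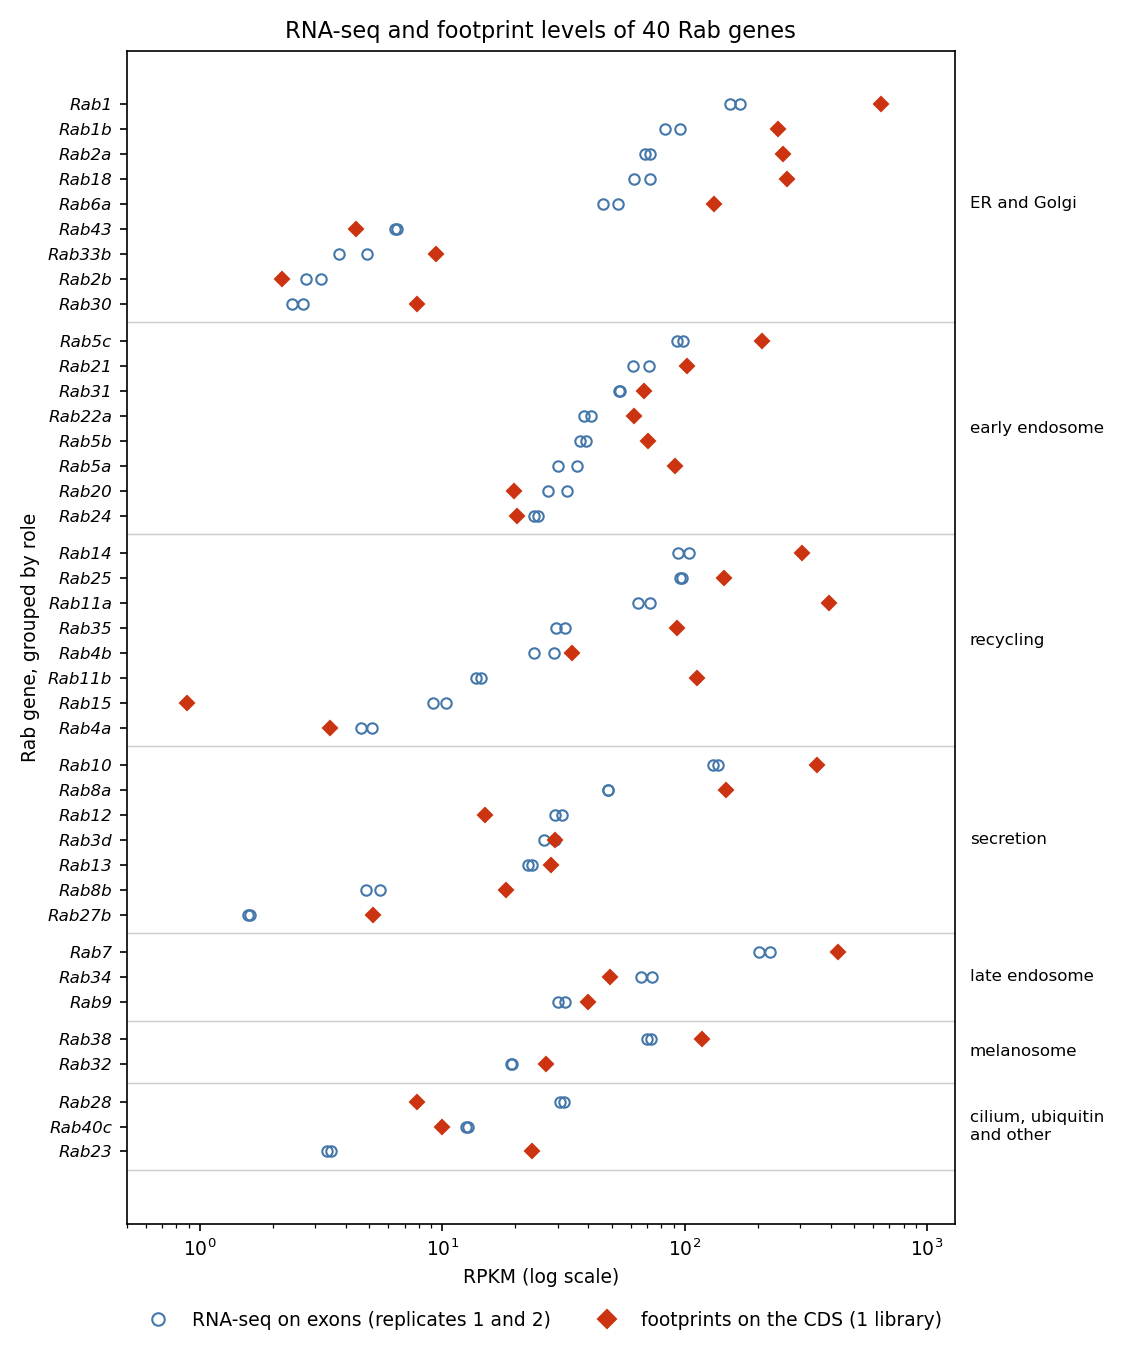
RNA-seq levels on exons (open circles, replicates 1 and 2) and footprint levels on the CDS (diamonds, 1 library) in RPKM on a log axis for the 40 Rab genes that passed the filters, grouped by role. RNA-seq levels reached 204 and 224 RPKM for Rab7, and Rab15 had the lowest footprint level, 0.886 RPKM.

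The other 18 members did not pass, and the highest RNA-seq mean among them was 3.69 RPKM, for Rab7l1. Rab7l1, with 4.09 and 3.28 RPKM, and Rab3a, a regulator of exocytosis in neurons with 2.08 and 2.37 RPKM, failed only on the base mean, at 22.5 and 24.1. The other 16 were at or below 1 RPKM in at least 1 replicate, namely Rab17, Rab19, Rab26, Rab27a, Rab33a, Rab36, Rab37, Rab39, Rab39b, Rab3b, Rab3c, Rab40b, Rab42, Rab44, Rab6b and Rab9b. No footprint lay on the CDS of 12 of the 18 members, and 10 had fewer than 3 counts on the measured region in all 3 libraries. Rab26, Rab3b and Rab42, named after their values were seen, had 0 counts on exons in all 3 libraries. These 3 were thus not detectable at this depth, while Rab3d, a relative of Rab3b in regulated secretion, passed with 26.2 and 29.3 RPKM.

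Log2 translational efficiency (TE) compares the footprint level on the CDS with the mean RNA-seq level on exons, as the log2 of their ratio in RPKM relative to the median of the 9862 genes. It is given with its SD over the 2 RNA-seq replicates, and the single ribosome profiling library adds a counting error. The 40 Rab genes had a median TE of 0.47, with quartiles of -0.36 and 1.27 and an SD between genes of 1.28, but the median was -0.12 without division by length and -0.24 relative to genes with a CDS of 600 to 700 nt, a comparison chosen after seeing the data. TE was above 1 in 16 of the 40 members, against 20.7% of all genes. It was below -1 in 3 of the 40, against 21.1% of all genes. With RNA-seq counted over the CDS, 11 members were above 1 and 5 below -1, against 18.3% and 19.5% of all genes. The counts were 2 and 11 without division by length, against 19.2% and 21.1%. Relative to genes of 600 to 700 nt they were 3 and 10, against 18.4% and 21.3% of those genes. The position of the family relative to other genes therefore changed sign with the treatment of length, while with RNA-seq over the CDS the median was 0.37. Without division by length, footprints on the CDS are set against RNA-seq counts on whole exons, so that value also depends on UTR length. The median counted exon length was 2032 nt in the Rab genes and 2886 nt over all genes that passed.

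**Figure D2:**
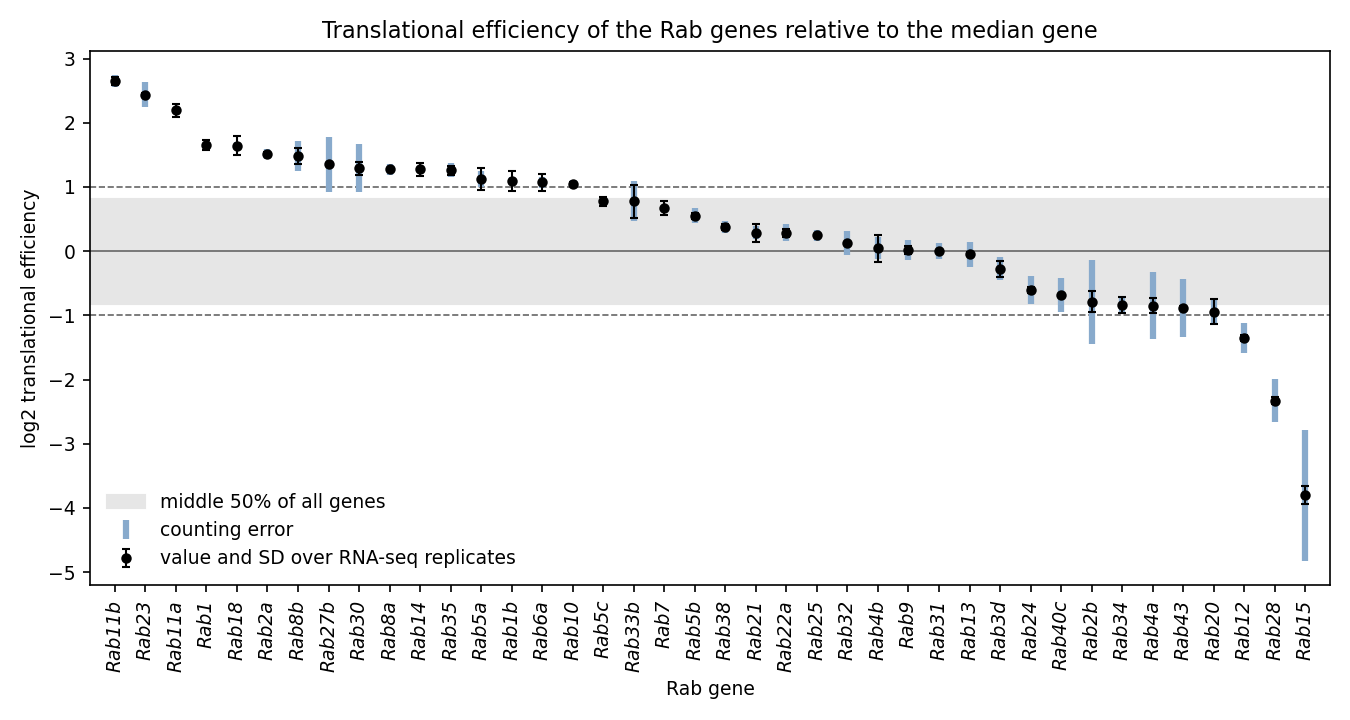
Log2 translational efficiency of the 40 Rab genes relative to the median of 9862 genes, with the SD over 2 RNA-seq replicates (black bars) and the counting error (blue bars); the grey band holds the middle 50% of all genes and dashed lines mark 1 and -1. The values run from 2.65 for Rab11b to -3.81 for Rab15, and the median of the family, 0.47, turned to -0.12 without division by length and to -0.24 relative to genes with a CDS of 600 to 700 nt.

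Rab proteins are short, with a median counted CDS of 641 nt against 1353 nt over all genes that passed. Among genes with a counted CDS of 600 to 700 nt, 32 Rab genes had a median TE of 0.61 and 446 other genes had 0.72. Of these 446 genes, 39.2% were above 1 and 9.64% below -1, shares close to those of the family. The higher TE of Rab genes was thus shared by other genes of their length.

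TE ran from 2.65 to -3.81 within the family. Of the 39 steps between neighbours in the order of TE, 3 were larger than 2 combined errors, where the errors hold both counting and replicate spread. These steps lay between Rab11a and Rab1, between Rab10 and Rab5c, and between Rab12 and Rab28. The other steps were at or below 2 combined errors. The replicate spreads of neighbours were combined as if independent, although both genes come from the same RNA-seq libraries. Rab10 and Rab5c moved in opposite directions between the replicates, with log2 ratios of -0.07 and 0.08. Their step of 0.27 is therefore less certain than this combination gives. The order also moved with the treatment of length, with a Spearman correlation of 0.73 between TE with and without division by length over the 40 genes. Without it Rab7 was at 1.67 and Rab11b at 0.45. RNA-seq and footprint levels rose together over the 40 genes, with a Spearman correlation of 0.88 against 0.79 over all 9862 genes, while RNA-seq level and TE had a correlation of 0.21. These correlations are descriptions across genes of the same libraries, and genes are not independent replicates.

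Among members of the ER and Golgi routes, 9 of 12 passed and 6 of the 9 were above a TE of 1, against 20.7% of all genes, with a median of 1.10. Without division by length 0 of the 9 were above 1, against 19.2% of all genes, and 2 were below -1, against 21.1%, with a median of 0.18. Rab1 had 4339 and 5190 RNA-seq counts and 1382 footprints, which gave a TE of 1.65 ± 0.08 (SD, n = 2) with a counting error of 0.04, and 0.67 without division by length. Its close relative Rab1b, which acts in the same step, had 82.9 and 95.9 RPKM in RNA-seq, 242 RPKM of footprints and a TE of 1.10 ± 0.16 (SD, n = 2). Rab1 was therefore the more abundant of the pair in all 3 libraries, and its footprint level was 2.66 times that of Rab1b against 1.81 times in RNA-seq. The TE difference of 0.55 had a counting error of 0.08 but was lost with RNA-seq counted over the CDS (-0.03). Rab18, linked to lipid droplets and ER structure, had 71.9 and 61.6 RPKM in RNA-seq and 264 RPKM of footprints, a TE of 1.64 ± 0.15 (SD, n = 2), which was 0.68 with RNA-seq over the CDS and 0.18 without division by length.

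Rab2a and Rab2b, which act between the ER and the Golgi and in the fusion of lysosomes, were far apart. Rab2a had 71.9 and 68.9 RPKM in RNA-seq and 255 RPKM of footprints. Rab2b had 2.74 and 3.18 RPKM in RNA-seq and 2.17 RPKM of footprints, from 5 footprints. Rab2a was the more abundant in each library, by 23.8 times in mean RNA-seq level and 117 times in footprints. Its TE was 1.52 and that of Rab2b -0.79, a difference of 2.30 with a counting error of 0.66, or 2.66 without division by length. Rab33b, a Golgi member linked to autophagy, had the largest log2 ratio between RNA-seq replicates of the 40 passing members in absolute value, at -0.38, with 4.90 and 3.77 RPKM and a TE of 0.77 ± 0.26 (SD, n = 2), which turned to -0.48 without division by length. Rab43, with 6.38 and 6.51 RPKM and 4.43 RPKM of footprints, was the lowest of the group at -0.88, with a counting error of 0.45 from 10.5 footprints, and at -2.75 without division by length.

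All 8 early endosome members passed, with a median TE of 0.29 that turned to -0.28 without division by length. Rab5a, Rab5b and Rab5c control the fusion of early endosomes and the uptake of receptors. Rab5c was the most abundant of them, with 92.8 and 98.1 RPKM in RNA-seq and 208 RPKM of footprints. Rab5b had 39.2 and 37.0 RPKM in RNA-seq and 70.9 RPKM of footprints. Rab5a had 36.1 and 30.2 RPKM in RNA-seq and 91.6 RPKM of footprints. Rab5c thus led in every library, while Rab5a and Rab5b lay close together in RNA-seq and had footprint levels in the opposite order. The TE of Rab5a was 1.13 and that of Rab5b 0.55, a difference of 0.57 with a counting error of 0.17, and the order reversed with RNA-seq counted over the CDS (-1.01). Without division by length the difference was 1.46, with 0.73 for Rab5a and -0.73 for Rab5b. Only 76.6% of the annotated CDS of Rab5a was counted, and that of Rab5b was counted in full. Of the annotated exon length 24.9% was counted for Rab5a and 75.6% for Rab5b.

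Rab22a and Rab31, close relatives that act between early endosomes and the trans-Golgi network, had a TE of 0.29 and 0.00. Rab22a had 41.3 and 38.4 RPKM in RNA-seq and 61.6 RPKM of footprints, and Rab31 had 53.6 and 54.1 RPKM and 68.2 RPKM of footprints. Rab20, linked to the maturation of phagosomes, was lowest of the group in the main version at -0.94 ± 0.19 (SD, n = 2), with 27.3 and 32.6 RPKM in RNA-seq and 19.8 RPKM of footprints. Without division by length Rab22a was at -0.42, Rab31 at -1.56 and Rab20 at 0.02, so the order within the group depended on the treatment of length. Rab20 has 0 nt of counted 5′UTR and only 23 nt of counted 3′UTR, against 1066 nt of 3′UTR in Rab22a and 2683 nt in Rab31.

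The recycling members held both extremes of the family, and 8 of 9 passed with a median TE of 0.75, or 0.30 without division by length. Rab11b, which returns cargo from recycling endosomes to the surface and lies at chr17:33742484-33760530 (GRCm38), had 13.7 and 14.5 RPKM in RNA-seq and 112 RPKM of footprints. Its TE of 2.65 ± 0.06 (SD, n = 2), with a counting error of 0.09, was the highest of the family. Rab11a, which acts in the same pathway, had 72.2 and 64.3 RPKM in RNA-seq, 395 RPKM of footprints and a TE of 2.19 ± 0.11 (SD, n = 2). Rab11a was the more abundant of the pair in all 3 libraries, by 4.84 times in RNA-seq. Rab11b had the higher TE by 0.46, with a counting error of 0.11, and by 1.51 with RNA-seq over the CDS. Without division by length the order turned, with 0.45 for Rab11b and 1.36 for Rab11a. The counted 3′UTR of Rab11b is 5187 nt and that of Rab11a 1552 nt.

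Rab25, the epithelial relative of the Rab11 genes and a regulator of integrin recycling, had 95.8 and 97.2 RPKM in RNA-seq and 145 RPKM of footprints. Its TE of 0.25 ± 0.03 (SD, n = 2) was below those of Rab11a and Rab11b, although its RNA-seq level on exons was above both. With RNA-seq over the CDS it was 0.42, against 1.00 for Rab11a, and without division by length it was 0.53, above the 0.45 of Rab11b. Rab14, which acts between the Golgi and endosomes, had 104 and 94.0 RPKM in RNA-seq, 304 RPKM of footprints and a TE of 1.27 ± 0.10 (SD, n = 2), or 0.03 without division by length. Rab4b, a regulator of rapid recycling, had 23.9 and 28.9 RPKM in RNA-seq and 34.4 RPKM of footprints, and its relative Rab4a had 4.62 and 5.15 RPKM and 3.45 RPKM of footprints. Rab4b was the more abundant in each library, and its TE of 0.04 exceeded that of Rab4a, -0.85, by 0.89 with a counting error of 0.55, and by 1.13 without division by length.

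Rab15, an endosomal recycling member best known from neurons, lay at the low end. It lies at chr12:76797960-76822908 (GRCm38). RNA-seq gave 306 and 455 counts, or 9.15 and 10.4 RPKM, while its CDS held 2 footprints, or 0.886 RPKM. The resulting TE was -3.81 ± 0.14 (SD, n = 2) with a counting error of 1.02, and it was -3.74 with RNA-seq over the CDS and -5.09 without division by length. Rab15 was thus measured readily in both RNA-seq replicates and hardly at all in ribosome profiling. Of its annotated CDS 94.5% was counted, and none of its 28-nt stretches matched another annotated gene (0.0%).

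Of the 13 members that act in secretion and polarised delivery 7 passed, with a median TE of 1.05, or 0.13 with RNA-seq over the CDS and -0.49 without division by length. Rab10 had a TE of 1.05 ± 0.04 (SD, n = 2), which was 0.48 with RNA-seq over the CDS and -0.49 without division by length. Rab8a and Rab8b, close relatives in transport to the plasma membrane and cilium, differed in level. Rab8a had 48.2 and 48.4 RPKM in RNA-seq and 148 RPKM of footprints. Rab8b had 5.52 and 4.84 RPKM in RNA-seq and 18.4 RPKM of footprints. Rab8a was the more abundant in every library, by 9.31 times in RNA-seq, while TE was 1.27 for Rab8a and 1.49 for Rab8b. That difference of 0.21 was within its counting error of 0.25. It was 1.03 with RNA-seq over the CDS and turned to -1.10 without division by length, where Rab8b was at -0.44. Rab12, linked to the degradation of receptors and to autophagy, had 31.1 and 29.3 RPKM in RNA-seq and 15.0 RPKM of footprints, a TE of -1.35 ± 0.05 (SD, n = 2), or -1.80 without division by length.

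The late endosome members Rab7, Rab34 and Rab9 passed out of 7, with a median TE of 0.02 that turned to -0.23 without division by length and to -0.29 with RNA-seq over the CDS. Rab7 was at 0.67 ± 0.11 (SD, n = 2), and at 1.67 without division by length. Rab38 and Rab32 carry enzymes to melanosomes and related organelles in melanocytes. Rab38 had 70.3 and 72.7 RPKM in RNA-seq and 118 RPKM of footprints, and Rab32 had 19.4 and 19.2 RPKM and 26.8 RPKM of footprints. Of the 6 melanocyte markers only Pmel passed, at 5.11 RPKM with 2 footprints, and the summed level of the 6 was 5.53 and 5.70 RPKM. Tyr had 1 count in each RNA-seq replicate and Tyrp1 had 2, both with 0 footprints. Both Rab genes were therefore above each of the 6 melanocyte markers in RNA-seq and in footprints.

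Of the 6 remaining members 3 passed, and these ran from near the top to near the bottom of the family. Rab23, a negative regulator of Hedgehog signalling, had 3.49 and 3.35 RPKM in RNA-seq and 23.5 RPKM of footprints. Its TE was 2.44 ± 0.03 (SD, n = 2) with a counting error of 0.20, 1.98 with RNA-seq over the CDS and 0.79 without division by length. Rab28, found at the base of cilia and in photoreceptors, had 30.5 and 31.8 RPKM in RNA-seq and 7.87 RPKM of footprints. With 18.5 footprints its TE was -2.33 ± 0.05 (SD, n = 2), the counting error was 0.34, and without division by length it was at -2.62. Rab23 thus had far less RNA than Rab28 and more footprints, in a CDS of similar length (711 and 663 nt).

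RNA-seq counts of Rab genes lay largely on 3′UTRs, so TE was also computed with RNA-seq counted over the CDS. Of the exon counts of the family, 53.5% (53.0% to 54.0%) in replicate 1 and 51.0% (50.6% to 51.5%) in replicate 2 were on 3′UTRs. Over all genes the shares were 27.2% (27.1% to 27.2%) and 25.2% (25.1% to 25.2%). The change of region moved TE by more than 1.5-fold in 6 of the 40 Rab genes, against 11.5% of all genes, and 3 changed sign. Rab5b moved up, from 0.55 to 1.90, and its RNA-seq density on the 3′UTR was above that on the CDS by 1.23 on the log2 scale. Rab27b, Rab11a, Rab18, Rab24 and Rab1 moved down. Rab11a went from 2.19 to 1.00, and its RNA-seq density on the 3′UTR was below that on the CDS, at a log2 ratio of -3.13. Rab27b, a secretory member with 1.61 and 1.59 RPKM, went from 1.35 to 0.13, and Rab24, a member linked to autophagy, from -0.61 to -1.53; these 2 genes were chosen after their values were seen. The order of the 40 genes was largely kept, with a Spearman correlation of 0.88 between both versions of TE, and 10 members, Rab11b and Rab23 among them, were above 1 in both, while Rab15, Rab28 and Rab12 were below -1 in both.

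**Figure D3:**
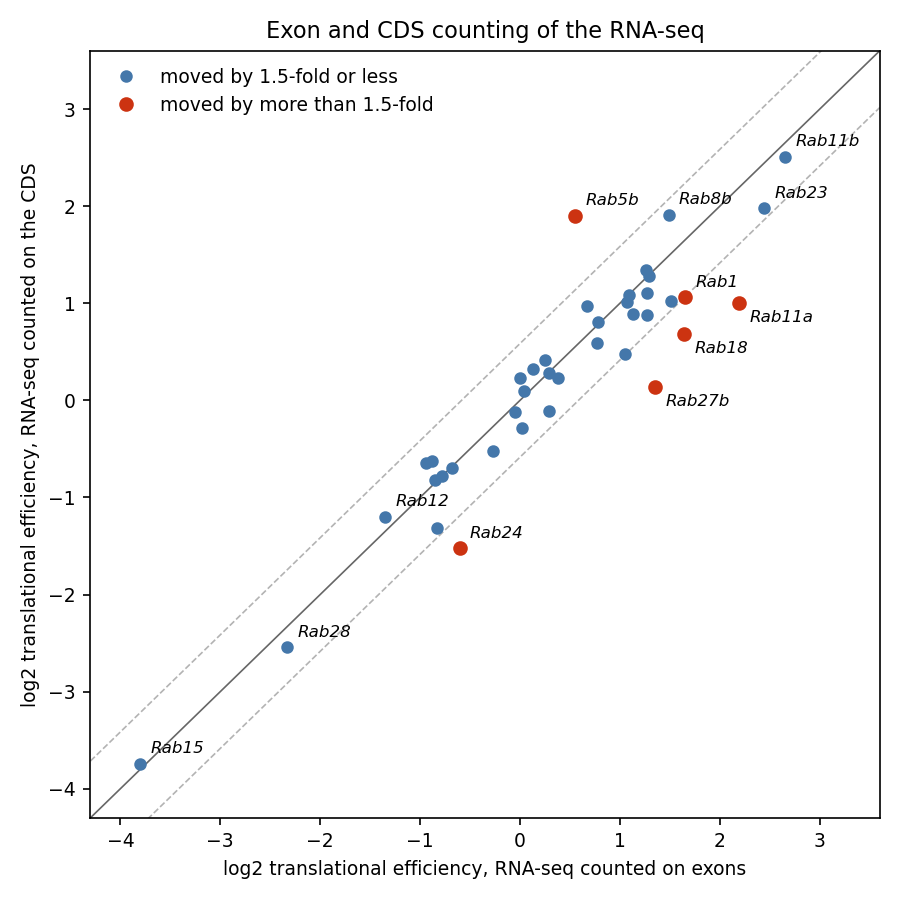
Log2 translational efficiency of the 40 Rab genes with RNA-seq counted on exons (x axis) and on the CDS (y axis); the solid line marks equal values and the dashed lines a 1.5-fold difference. Of the 40 genes 6 lie outside the dashed lines (red), with Rab5b above and Rab27b, Rab11a, Rab18, Rab24 and Rab1 below.

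Several members have processed pseudogenes or overlapping genes with matching sequence, where reads of 28 nt cannot be placed by sequence alone. Over 10% of the 28-nt stretches of 11 members, all among the 40 that passed, were also found in another annotated gene. The share was 95.5% in Rab11b, with Rab11b-ps2, and 66.5% in Rab7, with Rab7-ps1. In Rab4b it was 93.0%, with the overlapping gene Gm21983. Shared sequence between different Rab genes reached at most 3.23%. The median TE of the 11 members was 1.07 and that of the 29 others 0.29, and how reads that match several places were counted is not stated. Rab23 and Rab14 among the members above 1, and Rab15, Rab28 and Rab12 below -1, had no such match (0.0%).

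The surroundings of the start codon are shown for members at both ends of the TE order. The next sequences give 12 nt before and 9 nt after the annotated start codon, which is in capitals, from the same transcripts, for the 3 highest and the 3 lowest members in TE and for Rab25, whose 5′UTR was the most densely covered relative to its CDS among the 19 members meeting the minimums given with that result.
Rab11b: agcgccaggacaATGgggacccgg
Rab23: cctgtttcaaaaATGttggaggaa
Rab11a: ctcggccgcgccATGggcacccgc
Rab12: ccgtatgcgtgcATGgatcccagc
Rab28: tcctcggacaccATGtcagactct
Rab15: tgagtccctgccATGgcgaaacag
Rab25: tgctgagccaagATGgggaatcga

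A purine 3 nt before the start codon, part of the favoured context, was present in 51 of the 58 members (87.9%), against 81.3% of all coding genes. Together with a G right after the start codon it was present in 28 members (48.3%), against 40.3%. Among genes that passed the gaps were smaller, with the purine in 35 of the 40 members (87.5%), against 86.1%, and both in 21 (52.5%), against 46.8%. The 21 passing members with both had a median TE of 0.29 and the 19 without both had 0.55, and over all genes the medians were 0.08 and -0.08. An upstream ATG in the annotated 5′UTR was found in 26 of the 58 members (44.8%), against 52.3% of the 19305 coding genes with an annotated 5′UTR. Among passing genes with an annotated 5′UTR it was found in 16 of the 40 members, against 49.2%. The 16 passing members with an upstream ATG had a median TE of 0.27 and the 24 without had 0.61, and over all genes the medians were -0.25 and 0.24. Rab15, Rab28 and Rab12, the lowest members, each had 1 upstream ATG, but so did Rab23, near the top. A transcript start with a C followed by at least 4 pyrimidines, as in 5′TOP mRNAs, was annotated in 4 of the 58 members (6.90%), against 2.34% of the same 19305 genes. Of these, Rab33b, Rab34 and Rab9 passed, with a median TE of 0.02.

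Footprints on 5′UTRs made up 8.70% (8.20% to 9.23%) of the footprints on exons of Rab genes, against 4.50% (4.48% to 4.52%) over all genes. A gene was examined when 60 nt or more of its 5′UTR were counted and at least 10 footprints lay there and 10 on the CDS, which 19 Rab genes met. The 5′UTR had the higher footprint density in 1 of the 19, against 25.3% of the 2930 genes examined. The median log2 ratio of the densities was -1.79 in the Rab genes and -0.90 over all genes examined. With at least 5 footprints on the 5′UTR the count was 2 of 23. The share of 25.3% holds for at least 10 footprints, and none over all genes is given at 5. The difference from other genes was not tested.

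The gene with the higher 5′UTR density was Rab25, with 109 footprints on 204 nt of 5′UTR and 329 on 639 nt of CDS. Its densities were 53.2 and 51.5 footprints per 100 nt, a log2 ratio of 0.05 within its counting error of 0.16. RNA-seq density was also higher on its 5′UTR, with log2 ratios of 0.55 and 0.15 in the replicates. Rab22a came next at -0.48, with 40.8 footprints on 261 nt, and Rab31 at -0.78, with 29.3 footprints on 208 nt. In both genes RNA-seq was much sparser on the 5′UTR, with log2 ratios of -3.53 and -2.89 for Rab22a and -2.76 and -1.96 for Rab31. Rab10 had the most 5′UTR footprints, 185 on 551 nt, at a ratio of -1.90. With at least 5 footprints on the 5′UTR, Rab28 was also higher there, with 6.48 footprints on 176 nt and 18.5 on its CDS. The counts hold no positions within a region, so whether these footprints lie at upstream ATGs was not tested.

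**Figure D4:**
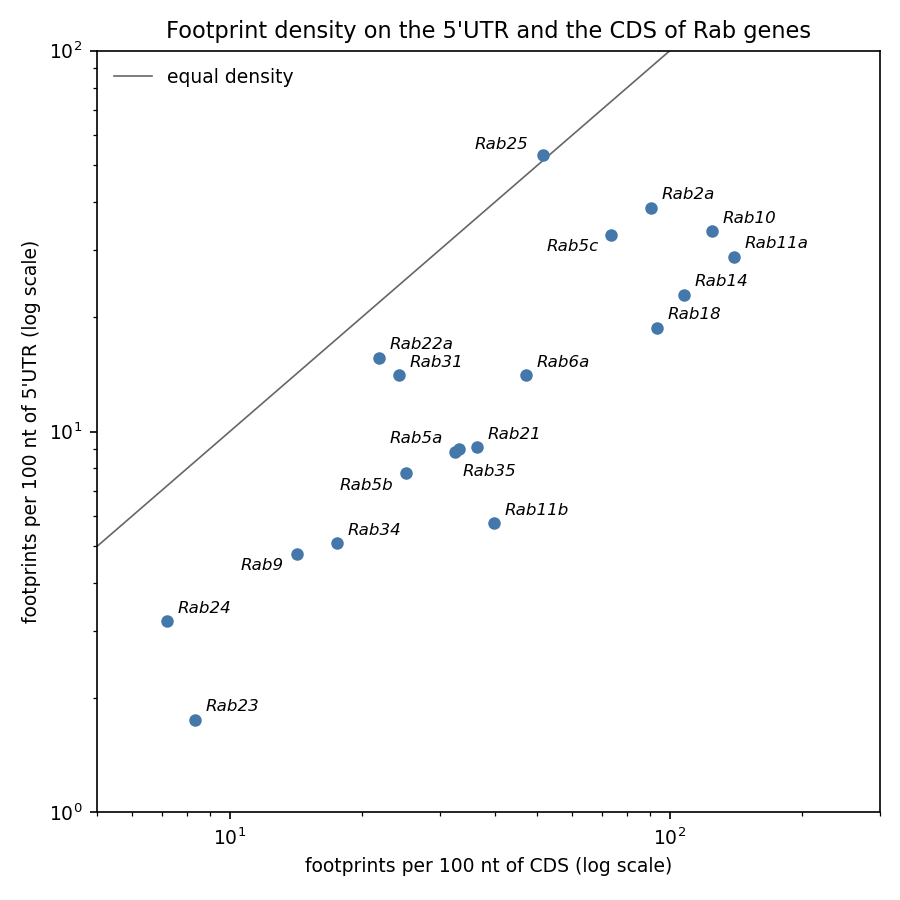
Footprints per 100 nt on the 5′UTR (y axis) and on the CDS (x axis), both on log axes, for the 19 Rab genes that met the minimums; the line marks equal density. Rab25 alone lies above the line, at 53.2 and 51.5 footprints per 100 nt.

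The upstream ATGs of these genes are shown next in windows of up to 30 nt from the same transcripts, with the ATG in capitals, because their reading frames differ. Rab25 and Rab22a have 2 upstream ATGs each, of which the first is printed. That of Rab25 lies 117 nt before the start codon and opens a frame of 14 codons, and that of Rab22a lies 237 nt before it with 16 codons. In Rab31 the ATG lies 37 nt before the start codon and its frame runs past it. The ATG of Rab10, 457 nt before the start codon, is followed directly by a stop codon. In Rab28 the ATG, 161 nt before the start codon, opens 5 codons.
Rab25: ccttttcccccaATGagagaggagccaggt
Rab22a: tggcgtcccaagATGgcggcggcggtagcg
Rab31: gtggcccggacgATGctgctgagccccggc
Rab10: tttcctggggttATGtagcagggcttgtcg
Rab28: gaggagggcaagATGgcggccggtgagtga

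Footprints on 3′UTRs were 2.99% (2.70% to 3.32%) of the exon footprints of Rab genes, against 1.84% (1.83% to 1.85%) over all genes. This share and those that follow are not divided by length. Passing Rab genes had a median annotated 3′UTR of 1750 nt and CDS of 639 nt. Over all genes that passed, the medians were 976 and 1382 nt, and the part of length in the shares was not tested. Among the 35 Rab genes with at least 20 footprints on CDS and 3′UTR together, the median 3′UTR share was 2.43%, against 1.13% over 8850 genes. In 5 of the 35 (14.3%) more than 20% of these footprints were on the 3′UTR, against 3.13% of all genes examined. These 5, named after their values were seen, were Rab3c, Rab33b, Rab27b, Rab8b and Rab3d. Rab33b had 24.1 footprints on its 3′UTR and 22.9 on its CDS, a share of 51.3% (37.2% to 64.7%). Rab3d had 22 and 67.9, a share of 24.5% (16.7% to 34.2%). Rab3c, which did not pass the filters, had 48 footprints on a 3′UTR of 7631 nt, 0 on its CDS, and 0 and 2 RNA-seq counts. The source of its footprints was not tested.

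GEFs outside the TRAPP complex, GAPs and effectors had lower median TE than the Rab genes themselves, with or without division by length. The lipid transfer and extraction machinery passed in full (8 of 8), with a median TE of 0.32, or -0.05 without division by length. Rabif, a Rab chaperone, had 21.6 and 19.6 RPKM in RNA-seq, 65.4 RPKM of footprints and a TE of 1.32 ± 0.08 (SD, n = 2). Rabggta and Rabggtb, the subunits of the enzyme that attaches lipids to Rab proteins, had a TE of 0.89 and -0.37. Gdi2, a GDP dissociation inhibitor, was the most abundant of the list with 126 and 116 RPKM in RNA-seq and a TE of 0.70.

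Of the GEFs 26 of 35 passed, and 15 of the 26 were below a TE of -1, against 21.1% of all genes, while 0 were above 1, against 20.7%. Their median was -1.10, and it was -0.87 with RNA-seq over the CDS. With RNA-seq over the CDS 12 of the 26 were below -1, against 19.5% of all genes, and without division by length 13 were, against 21.1%. Rabgef1, a GEF of the Rab5 proteins, had 556 and 699 RNA-seq counts, 133 footprints and a TE of 0.18. Rin2, also of that kind, had 681 and 750 RNA-seq counts and 2 footprints, a TE of -6.20 with a counting error of 1.02. Dennd5a, a DENN domain protein, had 805 and 1133 RNA-seq counts and 24 footprints, a TE of -3.51. Rin1, a Ras effector and Rab5 GEF, was the most abundant with 50.4 and 52.6 RPKM and a TE of -0.80. Low TE was thus frequent among the GEFs under each of these scalings. Subunits of the TRAPP complex, a GEF for Rab1, passed in 13 of 14 cases with a median of -0.03 that turned to 0.19 without division by length. They ran from Trappc5 at 2.02 and Trappc13 at 1.12 to Trappc8 at -1.04 and Trappc10 at -2.23, and Trappc6a was the most abundant with 97.6 and 113 RPKM.

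Of the GAPs 34 of 39 passed, 13 of them below -1, against 21.1% of all genes, and 0 above 1, against 20.7%, with a median of -0.77, or -0.71 without division by length. The TBC domain genes Tbc1d8b and Tbc1d31 were highest at 0.81 and 0.62. Tbc1d8 and Tbc1d16 were lowest at -3.44 and -3.28, from 17 and 6 footprints. Tbc1d10a was the most abundant, with 55.8 and 59.2 RPKM in RNA-seq and a TE of -0.75. Effectors passed in 36 of 50 cases, with 12 below -1, against the same 21.1%, 1 above 1, against 20.7%, and a median of -0.58, or -0.38 without division by length. Without that division 8 of the 36 were below -1, against 21.1% of all genes. Rph3al, an effector in exocytosis, was highest at 1.01 from 10 footprints, and Osbpl1a followed at 0.79. The Rab11 effector Rab11fip3 was lowest at -2.69 and the Rab27 effector Sytl1 next at -2.58, while the Rab11 effector Rab11fip5 was the most abundant with 95.4 and 96.4 RPKM and a TE of -0.84. GEFs, GAPs and effectors have a longer CDS than the Rab genes, with medians of 2658, 2346 and 2679 nt.

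Other families of small GTPases are of similar length to the Rab genes. Of the Ras family 14 of 26 passed, with a median TE of 1.01 that turned to -0.40 without division by length. Of the Arf family 23 of 27 passed, with a median of 0.62 that turned to -0.02. The Rab median of 0.47 lay below both in the main version. Without division by length it turned negative in the same way, to -0.12, above the Ras median and below the Arf median. With RNA-seq over the CDS the Rab median was 0.37, against 0.50 for the Ras family and 0.33 for the Arf family.

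**Figure D5:**
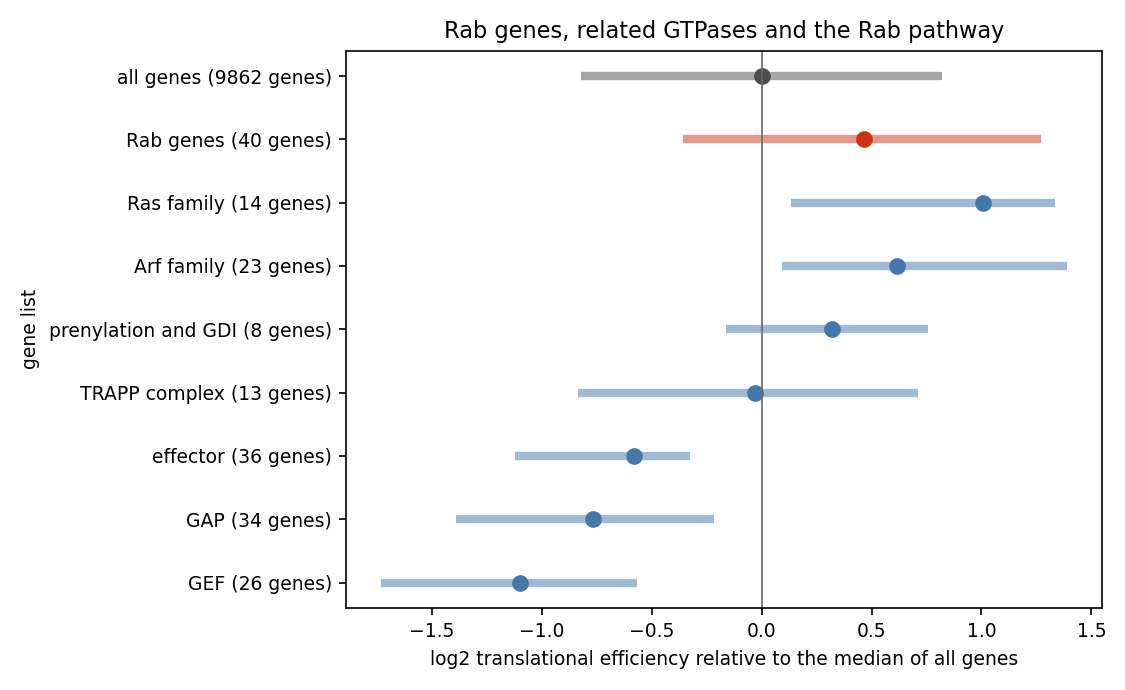
Median (points) and quartiles (bars) of log2 translational efficiency for all genes, the Rab genes, other small GTPase families and genes of the Rab pathway that passed the filters. The Rab median is 0.47 and the GEF median -1.10; without division by length the medians of the Rab, Ras and Arf genes and of prenylation and GDI turn negative, to between -0.40 and -0.02, and that of TRAPP turns to 0.19.

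Between the RNA-seq replicates the log2 ratios of the 40 Rab genes had an SD of 0.15, against 0.20 over all 9862 genes. The ratio of replicate 2 over replicate 1 was lowest in Rab33b at -0.38 and highest in Rab4b at 0.27. For 33 of the 40 genes it lay within 1 SD of the ratios over all genes. The order of the RNA-seq levels was nearly the same in both replicates, with a Spearman correlation of 0.99 over the 40 genes. The replicates thus differed little next to the spread between members, and the files used hold no replicate of the footprints.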

How the data were processed

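SCC cells were measured by ribosome profiling (1 library) and by RNA-seq (2 libraries); the long-read samples were left out because no count tables of them were among the files. The authors trimmed the reads with Trim Galore, aligned them to GRCm38 with STAR 2.6.1, removed ribosome profiling reads of ribosomal, mitochondrial and tRNA sequences with Bowtie2 2.4.1, and counted with Plastid. The deposited counts are estimated counts per gene, given for exons, for the CDS and for each UTR, which need not be whole numbers and are not normalized. The deposited RPKM values divide them by counted length and a library total above the summed gene counts, and were used only for 1 alternative filter. The exon counts were 1.75% of that total in ribosome profiling, and 21.1% and 21.3% in the RNA-seq replicates. The annotation release, the strand setting and the handling of reads matching several places are not stated.

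RPKM was recomputed in Python 3.11.15 with pandas 2.3.3 and numpy 2.4.6 (scipy 1.17.1 and matplotlib 3.10.9 for intervals and plots), without a pseudocount. Base means used DESeq2 1.42.0 size factors (R 4.3.3) on rounded counts. With 1 ribosome profiling library no test was run. Counting errors were propagated from the counts, and the calculation was tested on simulated data. Gene structures, sequences and 28-nt matches came from GENCODE M21, where all 58 members were found, 2 by a newer symbol. As alternatives, each RNA-seq replicate was left out, and the others were no division by length, a pseudocount of 1 RPKM, RNA-seq over the CDS, other filters, edgeR 4.0.16 TMM factors, joined rows left out, a minimum of 80% for the counted share of the CDS, other 5′UTR minimums, and both alternatives chosen after seeing the data.

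Rab genes named by rule were the 5 highest and 5 lowest in TE, the 5 most abundant, genes sharing a number where at least a pair passed, the 3 with the largest replicate difference and the 3 with the highest 5′UTR ratio. Other Rab genes, such as Rab38 and Rab32, the passing members of the melanosome group, are named outside these rules. In the pathway lists, genes were named from the 2 highest, the 2 lowest and the most abundant of each list. Members, lists and rules were chosen with earlier results of these data known.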

Additional observations from a re-analysis of the deposited data

How the results depend on the processing

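No paired analysis was possible because every library is of the same condition and the files used hold no replicate of the footprints. Without 1 RNA-seq replicate, the median TE of the Rab genes ranged from 0.46 to 0.49 and their median RNA-seq level from 31.0 to 32.1 RPKM. Not divided by length, the median TE reversed to -0.12, 2 members were above 1 and 11 below -1, and Rab8b and Rab10 reversed to -0.44 and -0.49. With RNA-seq over the CDS, the median was 0.37, 5 members were below -1 and the median RNA-seq level was 45.8 RPKM. At least 100 counts in every library left 21 members, with a median of 0.68, 5 above 1, 1 below -1 and a level of 68.2 RPKM. TE was then relative to the median of the 4829 genes left. Rab1 went from 1.65 to 1.26, Rab8a from 1.27 to 0.88 and Rab10 from 1.05 to 0.65. The shares of all genes above 1 and below -1 are not given for this filter. The filter on deposited RPKM gave 0.32 and 39.0 RPKM, and at least 80% of the annotated CDS counted gave 0.43. Chosen after seeing the data, the comparison with genes of 600 to 700 nt reversed the median to -0.24, with 3 above 1 and 10 below -1, and leaving out members that share over 10% of 28-nt stretches gave 0.29, with 10 above 1. At least 5 footprints on the 5′UTR gave 2 members with the higher density there. Of 324 alternative values for the 27 Rab genes named by rule, 214 moved by less than the replicate spread, 108 moved more and 2, of members past 1 or -1, reversed. In all, 20 values of 10 genes changed sign. Stricter filters leave fewer genes and change the reference median, and the cause of the other moves was not tested. Low footprint counts limit Rab15, Rab2b and Rab4a most.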
